A study of Drosophila melanogaster and Drosophila simulans and Drosophila yakuba with 27 samples.

Results

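RNA from the wing imaginal disc and the brain was compared within each of 9 Drosophila lines, and the size of the wing-brain difference was then set between 2 lineages. The lines of the melanogaster subgroup were D. melanogaster RAL-208 (genotype DGRP-208, an inbred line), D. melanogaster Canton S, D. simulans (a white-mutant stock) and D. yakuba (wild type). The other lines were D. ananassae, from a stock with the inversion In(3R)A, and 4 species labelled wild type, which were D. mojavensis, D. pseudoobscura, D. virilis and D. willistoni. The comparison takes 18 of the 27 libraries of the study, 8 from the melanogaster subgroup and 10 from the other species. Those are all its wing and brain libraries, and the remaining 9 came from eye-antennal discs. All tissues were dissected from wandering larvae of the third instar reared at 25 °C.

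The wing disc is an epithelial sac that gives rise to the adult wing and notum. The larval brain holds dividing neuroblasts, their neuronal and glial progeny and the differentiated larval neurons. The study's stated subject was the evolution of regulation and expression in the eye-antennal disc across Drosophila species, and its labels give no separate purpose for wing against brain. Here the measured quantity is, for each gene and line, log2(signal + 1) in wing minus log2(signal + 1) in brain, called the wing-brain difference. The signal is the deposited expression value. Within a line it is a count of reads divided by a constant of the gene and multiplied by a factor of the library. A positive wing-brain difference means a higher level in wing, and a difference between lineages is the mean of the 4 melanogaster-subgroup lines minus the mean of the 5 other lines. Taking wing minus brain within a line largely leaves out a factor that a species' gene model applies equally to both tissues. This holds only where the signal is well above the added 1. At lower signals the added 1 shrinks the wing-brain difference, so a species' level can still enter a difference between lineages.

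Each line had 1 library per tissue, so the lines are the replicates. They share ancestry and 2 of them are strains of 1 species, so they are not independent draws, and p-values measure only the spread between these lines. The wing libraries held 4114414 to 14308891 counted reads in the melanogaster subgroup and 4335120 to 12559123 in the other species. The brain libraries held 7059872 to 20473119 reads in the melanogaster subgroup and 4943047 to 11895342 in the other species. The tissue labels were checked with 6 genes. The wing disc genes vg, nub and ap were higher in wing in every line. The wing-brain difference of vg, the wing selector gene, was 3.71 ± 0.27 in the melanogaster subgroup and 3.64 ± 0.19 in the other species (SD, n = 4 and 5). That of elav, a pan-neuronal RNA-binding protein, was -3.42 ± 0.45 in the melanogaster subgroup and -2.98 ± 0.30 in the other species. The vesicle proteins n-syb and Syt1 averaged -5.42 and -4.33 in the melanogaster subgroup, against -5.10 and -5.33 in the other species. None of the 6 was called different between the lineages. In 190 genes that were at least 20-fold higher in brain at the median of the 9 lines, the median wing level was 5.70% of the brain level in D. simulans and 4.59% in D. virilis, against 0.551% to 1.59% in the other 7 lines. In sums of defining markers D. virilis did not take the same place, but the neuron sum leaned on 1 gene, elav. The summed neuron markers in wing were 8.29% of the brain level in D. simulans, 6.65% in D. virilis and 7.66% in D. ananassae, and 2.04% to 4.88% in the remaining lines (7 of 10 markers had a value in every library). In wing, elav made up 48.7 of the sum of 73.3 in D. ananassae, 36.7 of 63.0 in D. virilis and 16.2 of 52.2 in D. simulans. In the D. mojavensis wing it made up 38.3 of 44.7, and 3 of the 7 markers (Syt1, VGlut and Gad1) were at 0. The order of lines in this sum therefore depends largely on elav. D. simulans was also the highest line for neuroblast (13.5%) and glial markers (14.6%), while D. virilis, at 7.34% and 11.9%, lay among the other lines.

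Most of the wing-brain contrast was shared by both lineages. Of 7677 genes tested, 1360 (17.7%) were higher in wing in all 9 lines and 1683 (21.9%) were higher in brain in all 9. Among 512 genes at least 2-fold higher in wing on average in the melanogaster subgroup, 428 (83.6%) were also at least 2-fold higher in wing in the other species, and none was 2-fold higher in brain there. Among 1335 genes at least 2-fold higher in brain in the melanogaster subgroup, 1105 (82.8%) were so in the other species, and 8 were at least 2-fold higher in wing there. The line values of 1 gene that was opposite in this way, CG12655, did not overlap between the lineages. It was chosen after its values were seen and its mean signal was under 10.

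Correlated across genes, the wing-brain differences of 2 lines gave Pearson's r of 0.809 to 0.859 within the melanogaster subgroup (6 pairs), 0.790 to 0.862 within the other species (10 pairs) and 0.739 to 0.872 between the lineages (20 pairs). The ranges overlap, and the highest value of all pairs joined D. yakuba of the melanogaster subgroup to D. ananassae. All pairs share the same genes and the deposited scaling, and genes are not independent replicates.

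**Figure D1:**
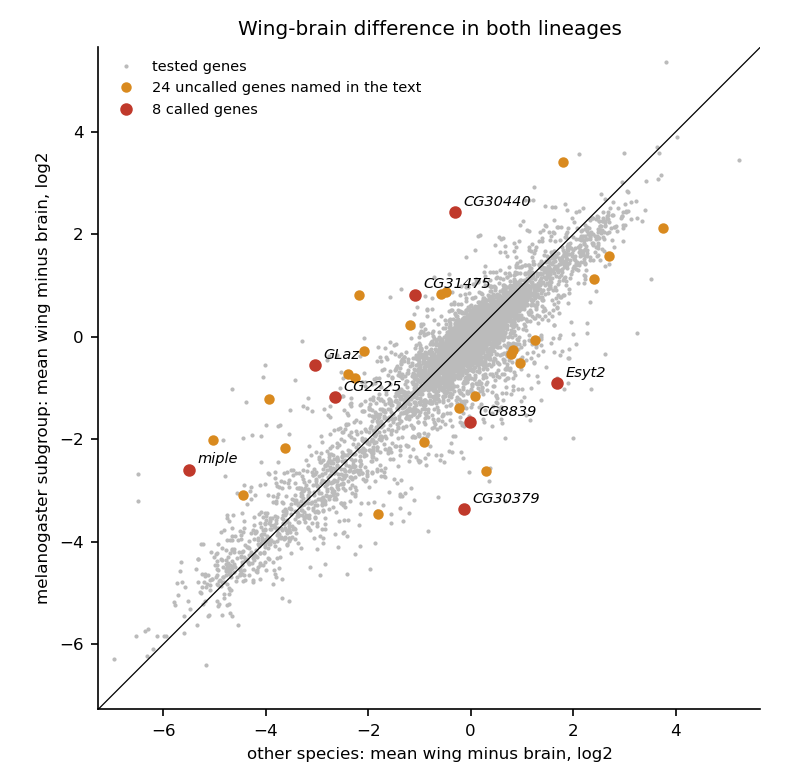
Mean wing-brain difference (log2 scale) of each tested gene in the melanogaster subgroup (vertical axis, 4 lines) and in the other species (horizontal axis, 5 lines), with the line of equality. Most of the 7677 genes lie along the line, and the 8 called genes stand 1.47 to 3.23 away from it in log2 units.

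Between the lineages, 8 of the 7677 genes (0.104%) were called at an adjusted p under 0.05 by limma with Benjamini-Hochberg adjustment. The wing-brain difference was higher in the melanogaster subgroup for 5 genes (0.0651%), miple, CG30440, GLaz, CG31475 and CG2225, and lower for 3 (0.0391%), CG30379, Esyt2 and CG8839. The median over all genes was -0.04. In each of the 8 genes the 4 line values of the melanogaster subgroup did not overlap the 5 of the other species. Such a separation was seen in 319 of all tested genes (4.16%), 119 (1.55%) with higher values in the melanogaster subgroup and 200 (2.61%) with lower ones. At an unadjusted p under 0.05, 824 genes (10.7%) differed, of which 289 (3.76%) were higher and 535 (6.97%) lower. The calls depended on which lines were in the fit, while the differences themselves moved little when 1 line was left out. They moved more over all the alternatives of processing and lines described below. There the difference ran from -5.47 to -1.15 for CG30379 and from 1.35 to 2.91 for GLaz. It ran from 0.93 to 2.25 for CG31475 and from -2.89 to -1.55 for Esyt2. The ranges of the other called genes were narrower than these. Over the 9 fits that left out 1 line each, the difference was 2.70 to 3.23 for miple, 2.44 to 2.91 for CG30440, 2.18 to 2.63 for GLaz, 1.77 to 2.10 for CG31475, 1.31 to 1.55 for CG2225, -3.67 to -3.08 for CG30379, -2.87 to -2.42 for Esyt2 and -1.79 to -1.46 for CG8839. The adjusted p of the 8 genes with all lines was 0.0436 to 0.0492, close to the threshold. Without RAL-208, D. simulans or D. mojavensis no gene was called, at 265 higher and 395 lower, 226 and 410, and 296 and 454 genes with an unadjusted p under 0.05. The counts of higher and lower calls were 0 and 1 without Canton S, 0 and 5 without D. yakuba, 7 and 8 without D. ananassae, 0 and 1 without D. pseudoobscura, 2 and 0 without D. willistoni and 2 and 0 without D. virilis. Without D. simulans and D. virilis together, the lines with the highest wing level of the 190 brain-typical genes relative to brain, none was called, at 227 and 371 genes with an unadjusted p under 0.05. The part of brain RNA in the calls was not tested. The sign of all 8 genes held in each of these fits.

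**Figure D2:**
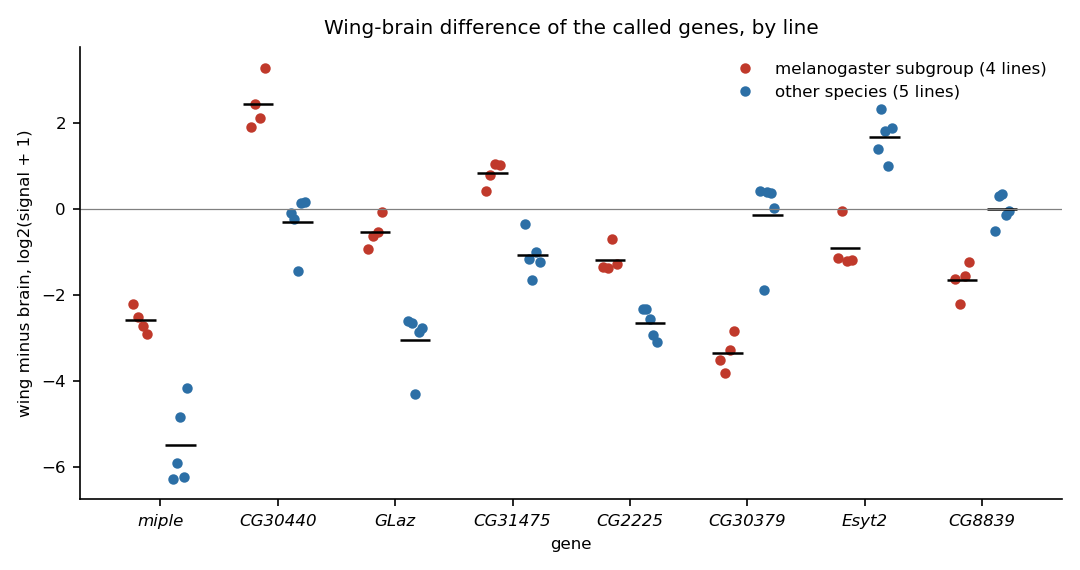
Wing-brain difference, log2(signal + 1) in wing minus brain, of the 8 called genes. Each point is 1 line, with the melanogaster subgroup left of the other species for each gene and a bar at the mean. No gene's 4 and 5 points overlap. The 5 genes on the left are higher in the melanogaster subgroup by 1.47 to 2.90 and the 3 on the right are lower by 1.65 to 3.23.

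Of the called genes, miple (current symbol miple1, chromosome arm 3L) encodes a secreted growth factor of the midkine and pleiotrophin family. Its wing signal was 95.4, 90.2, 78.0 and 88.4 in both D. melanogaster strains (RAL-208 before Canton S) and then D. simulans and D. yakuba, against 6.76 in D. ananassae, 11.0 in D. pseudoobscura, 22.7 in D. willistoni, 9.14 in D. mojavensis and 29.7 in D. virilis. Its brain signal was 448, 518, 522 and 673 in the melanogaster subgroup, against 601, 722, 684, 765 and 551 in the other species, in the same order of lines, which is kept below. The brain was the higher tissue in all 9 lines. The wing levels of the lineages were apart and their brain levels overlapped. Some wing counts were low, with 48 reads in D. ananassae, 77 in D. pseudoobscura, 136 in D. willistoni, 22 in D. mojavensis and 173 in D. virilis. The melanogaster subgroup had 273 to 1632 wing reads, and brain reads were 2380 to 11437 per line. The wing-brain difference was -2.59 ± 0.30 in the melanogaster subgroup and -5.49 ± 0.94 in the other species (SD, n = 4 and 5). The difference between them was 2.90 (SE 0.41, adjusted p = 0.0436, limma). In an exact permutation test over the 126 assignments of lines, miple and each of the other 7 called genes reached a two-sided p of 0.0159, which is the smallest this design allows. That test was run on genes already picked by limma and adds no independent evidence.

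GLaz (Glial Lazarillo, arm 2R) encodes a lipocalin related to vertebrate apolipoprotein D and is known from glia. Its wing signal was 7.06, 10.4, 10.5 and 7.02 in the melanogaster subgroup, against 1.71, 9.89, 0.638, 4.30 and 3.42 in the other species. In brain it was 14.5, 16.6, 15.7 and 7.50 in the melanogaster subgroup, against 15.7, 67.6, 31.7, 37.4 and 29.0 in the other species. Brain was the higher tissue in all 9 lines, with a wing-brain difference of -0.94 to -0.08 in the melanogaster subgroup and of -4.32 to -2.62 in the other species. The lowest brain value of the other species, in D. ananassae, lies within the range of the melanogaster subgroup. Wing minus brain was -0.55 ± 0.35 in the melanogaster subgroup and -3.04 ± 0.72 in the other species, a difference of 2.50 (SE 0.36, adjusted p = 0.0436). The counts behind it are low, with 7 to 110 wing reads and 51 to 460 brain reads per line.

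Esyt2 (extended synaptotagmin-like protein 2, arm 3R) belongs to the family of proteins that tether the endoplasmic reticulum to the plasma membrane. Its wing signal was 5.27, 7.06, 6.81 and 4.05 in the melanogaster subgroup, against 28.9, 70.6, 38.2, 4.18 and 27.1 in the other species. The brain values were 12.9, 7.35, 17.1 and 10.6 in the melanogaster subgroup, against 10.4, 13.2, 10.1, 1.62 and 6.60 in the other species. Brain was the higher tissue in the 4 lines of the melanogaster subgroup, though in Canton S the tissues were nearly equal, and wing was higher in the 5 others. In wing, D. mojavensis lay among the melanogaster-subgroup lines and the remaining species were higher. Wing minus brain averaged -0.90 ± 0.57 in the melanogaster subgroup and 1.68 ± 0.51 in the other species, a difference of -2.58 (SE 0.34, adjusted p = 0.0436). Some counts were low, with 48 to 2207 wing reads and 25 to 563 brain reads per line. Transfer RNA and small nuclear RNA genes lie within the Esyt2 gene in the current D. melanogaster annotation, and their part in the counts was not tested.

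The other 5 called genes carry little functional annotation in the sources used here and are described by their values. CG30440 (arm 2R) had a wing signal of 92.2, 83.3, 85.0 and 170 in the melanogaster subgroup, against 95.4, 40.3, 4.59, 13.9 and 17.7 in the other species. In brain it had 23.8, 14.6, 19.0 and 16.5 in the melanogaster subgroup, against 101, 47.5, 14.4, 12.6 and 15.7 in the other species. Wing was the higher tissue in all 4 lines of the melanogaster subgroup, and in the other species the tissues were close to each other except in D. willistoni, where brain was higher, although the level itself ran over a wide range. Wing minus brain was 2.44 ± 0.61 in the melanogaster subgroup and -0.30 ± 0.67 in the other species, a difference of 2.73 (SE 0.37, adjusted p = 0.0436).

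CG31475 (current symbol myd, arm 3R) had a wing signal of 16.2, 18, 23.7 and 8.46 in the melanogaster subgroup, against 7.78, 8.72, 1.74, 5.02 and 1.2 in the other species. Brain values were 11.9, 9.93, 10.9 and 3.63 in the melanogaster subgroup, against 10.2, 20.9, 7.71, 11.1 and 4.19 in the other species. The order of the tissues was turned round between the lineages, with wing higher in all 4 and brain higher in all 5 lines. This gave wing-brain differences of 0.82 ± 0.30 in the melanogaster subgroup and -1.09 ± 0.48 in the other species, a difference of 1.91 (SE 0.29, adjusted p = 0.0492). Low counts lie behind some values, with 17 to 438 wing reads and 60 to 409 brain reads per line. A non-coding RNA is annotated on the same strand over part of the gene, so its reads could not be separated.

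CG2225 (arm 2L) had a wing signal of 32.7, 29.3, 25.0 and 39.5 in the melanogaster subgroup, against 9.18, 11.7, 14.4, 9.21 and 6.36 in the other species. In brain the signal was 85.4, 77.9, 41.3 and 97.8 in the melanogaster subgroup, against 49.97, 63.3, 90.5, 77.6 and 61.9 in the other species. Brain was the higher tissue throughout, and the wing levels of the lineages did not overlap. Wing minus brain was -1.18 ± 0.32 in the melanogaster subgroup and -2.65 ± 0.35 in the other species, a difference of 1.47 (SE 0.21, adjusted p = 0.0436). An antisense RNA overlaps it, and the library labels do not state that strand was kept.

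CG30379 (arm 2R) had the widest gap. Its wing signal was 0.423, 0, 0 and 0.179 in the melanogaster subgroup, against 68.7, 0.656, 45.4, 73.8 and 31.2 in the other species. In brain it was 15.4, 13.2, 8.69 and 7.41 in the melanogaster subgroup, against 51.4, 5.12, 34.3, 56.7 and 30.7 in the other species. D. pseudoobscura did not go with the other species here. It was low in wing and higher in brain, as the melanogaster subgroup was, while D. ananassae, D. willistoni, D. mojavensis and D. virilis had similar levels in both tissues. The wing-brain difference was -3.37 ± 0.42 in the melanogaster subgroup and -0.14 ± 0.99 in the other species, a difference of -3.23 (SE 0.47, adjusted p = 0.0436). Fold changes of log2(signal + 1) understate the change of a gene this near 0. Reads were recovered in 6 lines only, with 1 wing read in RAL-208 and 2 in D. yakuba.

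CG8839 (arm 2R) had a wing signal of 68.2, 67.5, 69.9 and 61.1 in the melanogaster subgroup, against 51.2, 66.0, 56.3, 50.1 and 53.0 in the other species. Brain levels were 214, 318, 207.7 and 146 in the melanogaster subgroup, against 73.5, 53.4, 44.3, 55.8 and 55.0 in the other species. The brain levels of the lineages were far apart, and the wing levels lay close to each other. The wing-brain difference was -1.66 ± 0.41 in the melanogaster subgroup and -0.02 ± 0.35 in the other species, a difference of -1.65 (SE 0.22, adjusted p = 0.0436).

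The third tissue shows on which side of it each called gene differed, since wing minus eye-antennal and eye-antennal minus brain add up to the wing-brain difference. They are given without a test because they share its libraries. For CG30440 the lineages differed by 0.35 in wing minus eye-antennal and by 2.38 in eye-antennal minus brain. The corresponding values were 0.30 and 1.17 for CG2225, -0.78 and -2.44 for CG30379, and -0.29 and -1.36 for CG8839, so in these 4 genes most of the difference set both discs against the brain. It was more evenly divided in miple (1.12 and 1.78), CG31475 (0.92 and 0.99) and Esyt2 (-1.06 and -1.52). In GLaz alone of the 8, the wing minus eye-antennal share was the larger (1.40 and 1.10).

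**Figure D3:**
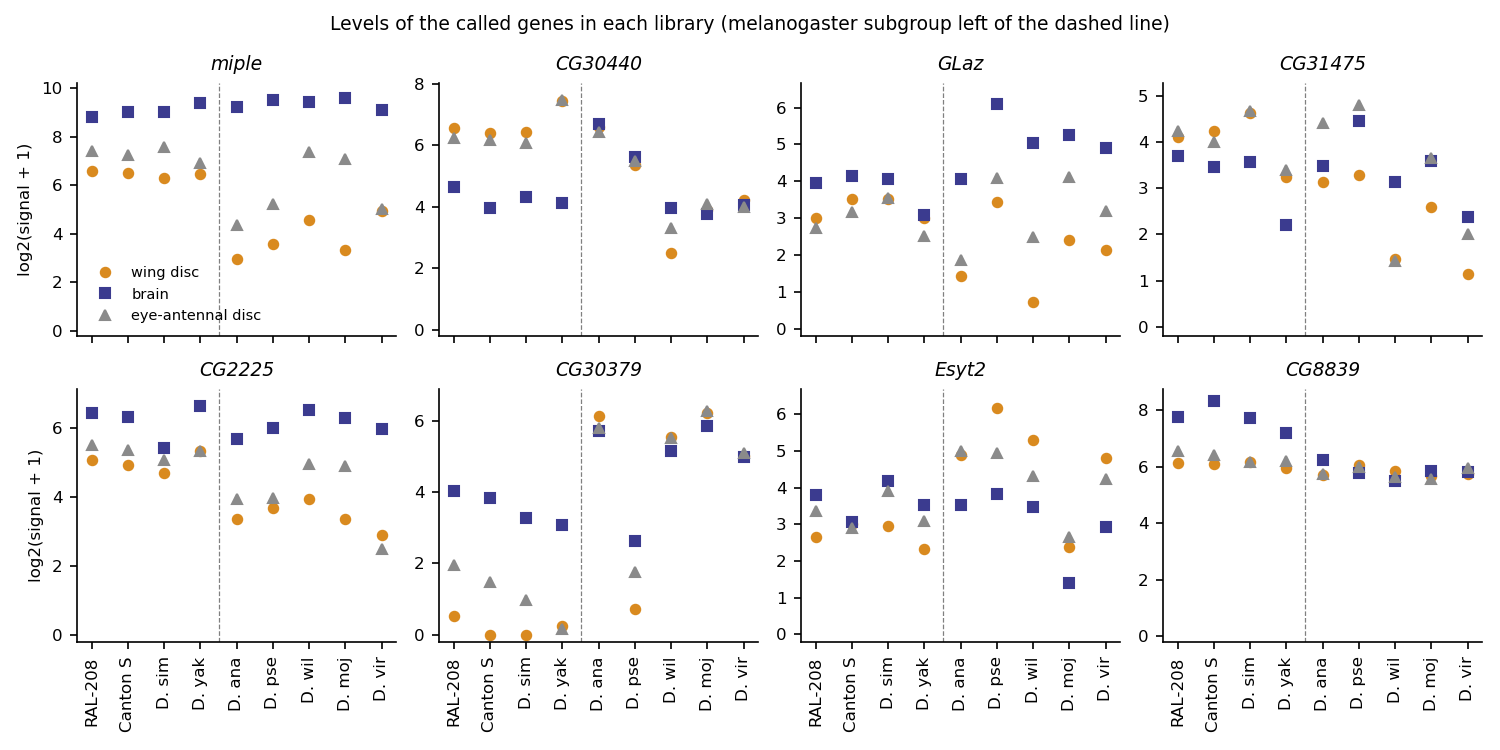
Level of the 8 called genes, log2(signal + 1), in the wing disc, brain and eye-antennal disc library of each line, with the 4 lines of the melanogaster subgroup left of the dashed line and the 5 other species right of it. For miple the wing points are the ones that separate the lineages, and for CG8839 the brain points are, at signals of 146 to 318 in the melanogaster subgroup against 44.3 to 73.5.

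Below the threshold, 48 genes (0.625%) with higher and 73 (0.951%) with lower wing-brain differences in the melanogaster subgroup combined an unadjusted p under 0.01, no overlap of the lines and a mean signal of at least 10, the called ones included. The 12 largest uncalled differences in each direction were chosen after their values were seen and were not called. They include unc-13, a presynaptic protein that primes synaptic vesicles, with a wing signal of 25.0, 46.7, 14.4 and 21.1 in the melanogaster subgroup, against 1.34, 0.639, 0.421, 3.82 and 4.16 in the other species. Its brain signal ran from 69.7 to 148 in the melanogaster subgroup and from 66.9 to 104 in the other species. Its difference was 3.02 (SE 0.53, adjusted p = 0.103), with 3 antisense or pseudogene annotations over the gene. Asator, a kinase related to the tau-tubulin kinases, had a wing signal of 20.3, 18.4, 37.4 and 32.2 in the melanogaster subgroup, against 0.781, 4.32, 5.65, 0.714 and 3.13 in the other species, and a difference of 2.74 (SE 0.53, adjusted p = 0.127).

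For CG12582 (current symbol beta-Man, a beta-mannosidase) the wing signal was 75.6, 75.7, 31.5 and 93.1 in the melanogaster subgroup, against 2.77, 0.786, 0.575, 0 and 1.80 in the other species, and the difference was 2.98 (SE 0.50, adjusted p = 0.0933). Its brain signal was also higher in the melanogaster subgroup, at 19.0 to 59.4 against 5.65 to 12.3 in the other species, so the gene differed in level in both tissues. A protein-coding gene overlaps it on the opposite strand. The remaining 9 genes in this direction, CG11360, beat-IIb, GV1, kar, fend, CG3097, CG3376, babos and CG17816, had differences of 1.80, 1.67, 1.61, 1.46, 1.46, 1.41, 1.41, 1.36 and 1.36.

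In the other direction DNaseII, an acid nuclease, had a wing signal of 0, 10.2, 0.676 and 1.07 in the melanogaster subgroup, against 18, 11.1, 5.57, 6.16 and 63.8 in the other species, and a difference of -2.91 (SE 0.65, adjusted p = 0.17). The transcriptional cofactor nab had a brain signal of 90.4, 51.4, 68.3 and 43.2 in the melanogaster subgroup, against 33.1, 11.9, 14.9, 7.19 and 31.4 in the other species, while its wing signal lay at 29.2 to 51.4 in the melanogaster subgroup and at 19.7 to 44.4 in the other species. Its difference was -1.47 (SE 0.36, adjusted p = 0.217). Spn43Aa, a serpin, was higher in wing in all lines, with a wing-brain difference of 2.12 ± 0.37 in the melanogaster subgroup and 3.76 ± 0.90 in the other species. Further genes were gol (-1.66), a RING-finger ubiquitin ligase, Act87E (-1.31), an actin whose reads may be split with near-identical actin genes, CG5731 (-1.27), asparagine-synthetase (-1.24), CG2611 (-1.16), CG32039 (-1.15), CG2812 (-1.13), Hus1-like (-1.12) and CG1827 (-1.08).

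Across 34 gene lists, no member was called. The medians of 23 lists lay within 0.25 of 0 on the log2 scale, and 6 lay below -0.5. The 6 include the list of odorant-binding and chemosensory proteins, 8 tested genes with a median of -1.06 and no member at an unadjusted p under 0.05. The median over these genes within each lineage was -0.43 in the melanogaster subgroup and -0.61 in the other species, which is the opposite order. Lists of tissue identity follow. Of 19 tested genes of neuronal function, 1 was higher and none lower at an unadjusted p under 0.05, with a median difference of -0.19. Among 17 glial genes there was 1 in each direction, and the median was 0.04. Of 32 wing patterning genes none was higher and 6 were lower, en, Dll, fj, kni, dpp and ptc, with a median of -0.20. Of 21 neuroblast genes none was higher and 5 were lower (nab, dpn, brat, CycE and Imp), with a median of -0.28. These counts stand beside 3.76% higher and 6.97% lower over all genes.

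Blood cell genes stood lowest. Of 13 tested hemocyte genes none was called, none was higher and 8 were lower at an unadjusted p under 0.05, beside 3.76% higher and 6.97% lower over all genes, and the median was -1.63. In 7 of the 13 the lines of the melanogaster subgroup lay below all lines of the other species, beside 2.61% of all genes. Hml, the clotting protein Hemolectin, had a brain signal of 65.5, 11.1, 12.1 and 1.17 in the melanogaster subgroup, against 5.36, 1.58, 1.09, 0.935 and 2.85 in the other species. Its wing signal was 6.78, 4.2, 3.0 and 0.634 in the melanogaster subgroup, against 11.1, 2.44, 3.29, 0.987 and 4.74 in the other species. Brain was the higher tissue in the 4 lines of the melanogaster subgroup and wing in the 5 others, and the difference was -2.21 (SE 0.49, adjusted p = 0.17). The prophenoloxidases PO45 and proPO-A1, made by crystal cells, differed by -2.16 and -1.92, and the phagocytic receptors eater, Sr-CI and nimC1 by -1.69, -1.65 and -1.63. The GATA factor srp, whose line values overlapped, differed by -1.81 and the laminin subunit LanB1 by -0.85. In these bulk samples, fewer cells of a type and less RNA per cell cannot be told apart.

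Of the 4 hemocyte markers Hml, nimC1, Pxn and srp, 3 had a value in every library (all but Pxn), and none of these was at 0 in any wing or brain library. These 3 are also among the lower members of the list above, so their sums add no separate evidence. Their summed brain signal was 8.78 to 82.2 in the melanogaster subgroup, against 2.30 to 13.9 in the other species. In wing it was 5.57 to 15.4 in the melanogaster subgroup, against 5.83 to 35.4 in the other species. RAL-208 had the highest brain value of Hml, and without that line the list's median was -1.18. It ranged from -1.84 to -1.18 over the leave-one-out fits.

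The ring gland, the endocrine gland attached to the larval brain, makes ecdysone. Of its 9 tested genes none was higher and 3 were lower at an unadjusted p under 0.05, beside 3.76% and 6.97% of all genes, with a median of -1.07. The ecdysone synthesis enzyme dib had a wing signal of 0, 0.894, 0.217 and 0.0889 in the melanogaster subgroup, against 2.30, 4.39, 7.61, 5.65 and 11.6 in the other species. Its brain signal was 13.9, 18.6, 6.57 and 5.46 in the melanogaster subgroup, against 10.9, 10.1, 11.4, 4.13 and 12.4 in the other species. The brain levels overlapped and the wing levels did not, and the difference was -2.49 (SE 0.47, adjusted p = 0.125). A second enzyme of the pathway, phm, differed by -2.22, and CG11762 by -1.68. The wing signal of phm was 32.6 in D. willistoni and at most 6.0 in every other line, and without D. willistoni the median of the list was -0.10.

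The median wing-brain difference of genes of trachea and cuticle was 1.86 in the melanogaster subgroup and 2.41 in the other species. Of 14 tested members none was higher and 7 were lower at an unadjusted p under 0.05, beside 3.76% and 6.97% of all genes, with a median of -0.52. The chitin deacetylase verm had a wing-brain difference of 1.68 in the melanogaster subgroup and 2.60 in the other species (difference -0.92, SE 0.19, adjusted p = 0.145). Cda4, a second gene of that family, had 2.19 in the melanogaster subgroup and 2.98 in the other species (difference -0.79, adjusted p = 0.149). The remaining members were pio (-0.65), Gasp (-0.98), Cda5 (-1.76), vvl (-0.38) and serp (-0.91). The tracheal markers were trh, btl, verm and serp, so verm and serp are counted in the list as well. The 3 of 4 with a value in every library summed in wing to 114 to 415 in the melanogaster subgroup, against 359 to 803 in the other species. As it shares genes with the list, this sum adds no separate evidence, and the part of tracheal RNA in these values was not tested.

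**Figure D4:**
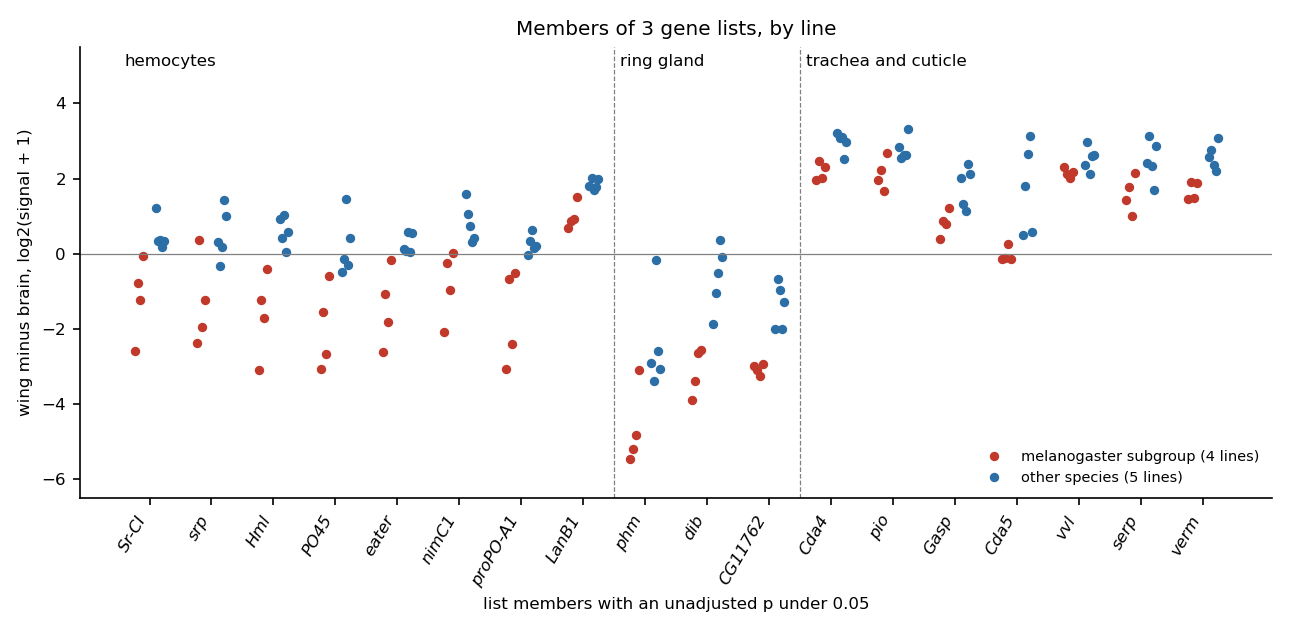
Wing-brain difference, log2(signal + 1) in wing minus brain, of the members of 3 gene lists with an unadjusted p under 0.05. Each point is 1 line, with the melanogaster subgroup left of the other species for each gene. The hemocyte members lie around or below 0 in the melanogaster subgroup except LanB1, whose mean is 1.00 against 1.86 in the other species.

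The lists of fat body and muscle varied widely between lines. Of 12 fat body genes 3 were lower at an unadjusted p under 0.05 (Lsd-1, Mtp and CG6910) and none was higher, beside 6.97% and 3.76% of all genes, with a median of -1.34. The line medians ran from -1.96 to 2.11 in the melanogaster subgroup and from -0.22 to 1.59 in the other species and overlapped. Of 19 muscle genes 3 were lower and none higher, with a median of -0.88, and that median was -0.37 without RAL-208. The 5 muscle markers summed in brain to 777 in D. simulans, 189 in RAL-208, 29.6 in Canton S and 18.9 in D. yakuba, against 17.7 to 78.4 in the other species. The part of muscle and fat body RNA in any gene's value was not tested.

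**Figure D5:**
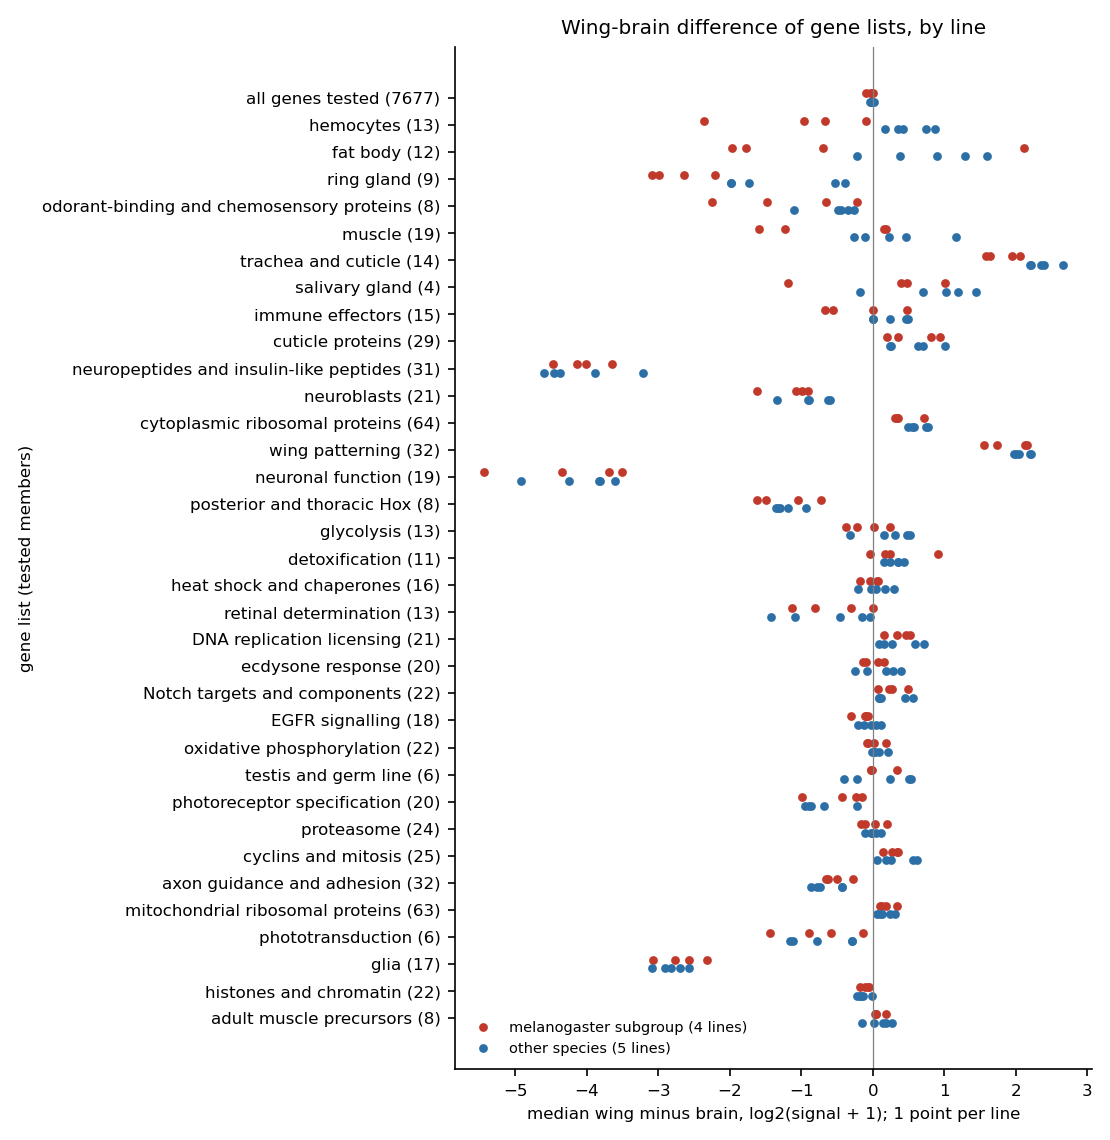
Median wing-brain difference of each gene list in each line (log2 scale), with the melanogaster subgroup above the other species in each row and all tested genes at the top. Rows are sorted by the difference between the lineages, from hemocytes (-1.63) down, and the number of tested members stands in brackets.

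Single genes of other lists passed the unadjusted threshold and none was called. Him, which holds adult muscle precursors of the wing disc in an undifferentiated state, had a wing signal of 17.2, 16.7, 17.6 and 14.9 in the melanogaster subgroup, against 8.98, 1.90, 3.67, 2.89 and 2.93 in the other species. Its lines did not overlap and its difference was 1.53 (SE 0.35, adjusted p = 0.17). Mef2, a muscle transcription factor on the same list, differed by -0.52 (adjusted p = 0.40). The Hox gene Ubx differed by -1.20 (adjusted p = 0.295) and the insulin-like peptide Ilp2 of the brain by -1.24 (adjusted p = 0.392). Of 64 cytoplasmic ribosomal protein genes 8 were lower and none higher, with a median of -0.20. Their median wing-brain difference in RAL-208, 0.714, lay within the 0.496 to 0.772 of the other species. Canton S, D. simulans and D. yakuba had 0.305 to 0.350. Of 63 mitochondrial ribosomal protein genes 4 were higher and 1 lower, with a median of 0.03. Over all genes 3.76% were higher and 6.97% lower, so the mitochondrial counts were close to the background.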

How the data were processed

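Per the submitters' processing notes, reads were aligned with TopHat2 2.0 and counted with HTSeq. The authors deposited read counts per gene under each species' identifiers, and a table of normalized signal under D. melanogaster symbols. Within a line, each normalized value is a count scaled by 1 factor per library and 1 constant per gene. The constant of a gene can differ between species. Neither genome builds nor the ortholog method is given in the sources used here, so no positions are reported. Columns headed only by D. melanogaster were taken as RAL-208, since the other columns name Canton S and the RAL-208 counts matched them up to scale. Matching value ratios to the count tables recovered whole reads for 89.8% to 94.4% of a line's genes above 0 in all 3 libraries.

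Of 15439 genes, 9832 had a value in all 27 libraries, and the 7677 at 1 or more in at least 9 were tested. The 9 line differences (pseudocount 1) were fitted with limma 3.58.1 in R 4.3.3 with an intensity trend (7 residual degrees of freedom), and p-values were adjusted by Benjamini-Hochberg. Pairing is by line, as the labels give 1 genotype to both tissues. Deviations of wing and brain from their lineage means correlated at 0.607 to 0.824 across genes in all 9 lines. The text names up to 12 called genes per direction with a mean of at least 10 and no overlap, called list members, genes at least 2-fold and opposite in both lineages, and 6 tissue checks. The members and lists were chosen with earlier results of these data known. edgeR 4.0.16 and DESeq2 1.42.0 were run on recovered counts as alternatives. Symbols and chromosome arms came from RefSeq's D. melanogaster Release 6 table.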

Additional observations from a re-analysis of the deposited data

Results flagged for a closer look

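The difference between the lineages passed the limma test in 8 genes. It was 2.90 in miple, 2.73 in CG30440, 2.50 in GLaz, 1.91 in CG31475, 1.47 in CG2225, -3.23 in CG30379, -2.58 in Esyt2 and -1.65 in CG8839.

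Single lines lay far from the rest of their lineage in 10 of 76 sets of wing-brain differences examined by Dixon's criterion. Chance alone meets it in about 1 in 20 independent, unselected sets. Most genes of these sets were picked by their values in these data, and the sets share lines, so 10 of 76 cannot be set against that rate. Among the melanogaster subgroup the far lines were D. simulans in CG2225 (-0.71), nub (3.13), elav (-2.75) and fend (-0.040), and Canton S in Esyt2 (-0.050). Among the other species they were D. willistoni in CG30440 (-1.46) and GLaz (-4.32), D. pseudoobscura in CG30379 (-1.89), and D. virilis in Syt1 (-4.08) and babos (-1.47). D. simulans gave 4 of the 10.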

How the results depend on the processing

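The counts of higher and lower calls stayed within 1.5 times of 5 and 3 when library medians were set equal (5 and 3), with TMM factors (5 and 3), with equal SD per line (6 and 3), at a mean of at least 10 (4 and 3), and in limma on the 5624 genes with recovered reads, an alternative added after seeing the data (5 and 3). They were 8 and 2 with a pseudocount of 10, 0 and 0 with a pseudocount of 0.1, 1 and 0 without a filter, 3 and 3 with robust moderation, 0 and 0 without the intensity trend, and 0 and 0 with the D. melanogaster strains averaged. Without pairing by line (no replicate block) they were 1 and 1, and over all 27 libraries with line as the block 17 and 24. Leaving out each line gave 0 to 7 higher and 0 to 8 lower, leaving out D. simulans and D. virilis 0 and 0, and leaving out those with D. yakuba and D. ananassae 4 and 1, none of them among the 8. On recovered reads edgeR called 0 and 1, and DESeq2 38 and 46. Similar counts did not always mean the same genes. Of the 5 and 3 main calls, 4 and 3 were called again with equal SD per line. That number was 5 and 2 in limma on the genes with recovered reads, and 5 and 2 in DESeq2. With a pseudocount of 10 it was 4 and 1, without D. ananassae 5 and 2, and without D. yakuba 0 and 1. Wherever limma or edgeR called none in a direction, 201 to 296 genes were higher or 371 to 643 lower at an unadjusted p under 0.05. The causes were not tested.

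No called gene changed sign under any alternative that gave it a value. Each was called in 7 to 12 of 26 alternatives (23 for CG30379). Uncalled tissue checks changed sign: vg (-0.030) and n-syb (0.089) without RAL-208, and nub with a pseudocount of 10 (0.19), equal SD (0.10), without D. simulans (0.071), without it and D. virilis (0.12) and without the 4 lines above (0.10). With 4 and 5 lines, and low wing counts in genes such as GLaz, smaller differences may not be detectable.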

Other observations

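Chromosome 4, the small dot chromosome of D. melanogaster, held 47 tested genes, with a median difference of the wing-brain difference of 0.14, against -0.07 to -0.02 on the other 5 arms. In 3 of its genes, unc-13, Asator and CG11360, the lines of the melanogaster subgroup lay above all lines of the other species, and no gene of the chromosome lay below. Over all tested genes the corresponding shares were 1.55% and 2.61%. The 3 genes are among those chosen above after their values were seen. None was called (adjusted p = 0.103, 0.127 and 0.292, limma). The arms are those of D. melanogaster, and where the orthologs lie in the other species was not examined.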
